A study of Rattus norvegicus with 2 samples.

Results

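The genes of the mitochondrial respiratory chain were compared between 1 untreated library and 1 library incubated with IgE, both from RBL-2H3 cells. RBL-2H3 is a rat basophilic leukemia line, a clonal model of mast cells and basophils that carries the high-affinity IgE receptor. Both libraries are wild type in the labels, which give no IgE dose, no duration and no antigen. Members were taken by gene name: the Nduf, Cox, Uqcr and Atp5 families, Sdha to Sdhd, Cycs, Cyc1, and the protein-coding Mt-nd, Mt-co, Mt-atp and Mt-cyb genes. Of 14913 distinct names in the table of all genes, 106 matched. Of these, 100 genes and 1 pseudogene had at least 20 reads when both libraries were summed, among 12102 genes in all that met this minimum.

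The respiratory chain passes electrons from NADH (complex I) and succinate (complex II) through coenzyme Q to complex III, then through cytochrome c to complex IV, which reduces oxygen. Complexes I, III and IV pump protons, and ATP synthase uses the proton gradient to make ATP. Complex II is built from nuclear genes alone, whereas the other complexes combine nuclear subunits with subunits encoded by mitochondrial DNA, so that their supply depends on transcription in both compartments. In mast cells, mitochondrial ATP and calcium uptake are known to take part in degranulation.

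Counted reads came to 20917968 for untreated cells and 26268330 for the IgE library. All 8 mast cell and basophil markers examined (Ms4a2, Fcer1a, Fcer1g, Kit, Hdc, Cpa3, Gata2 and Srgn) were expressed, with summed levels of 7919 and 8230 CPM, where CPM is the read count scaled to a common library size. Markers of macrophages (2 of 5 listed) and of neutrophils (1 of 5 listed) summed to at most 4.24 CPM in either library. Those of lymphocytes (3 of 4 listed) summed to 15.8 and 16.8 CPM. Of 5 genes used as fibroblast or epithelial markers 2 were listed, summing to 426 CPM untreated and 400 CPM with IgE. These were Col3a1 (281 and 253 CPM) and Thy1 (145 and 148 CPM). There was 1 library per condition, so no test across cultures was possible and no difference given here has a replicate check. Each log2 fold is IgE over untreated, with a 95% interval that covers counting error only. Differences were described by fixed sizes, 2-fold and 1.2-fold (0.26 on the log2 scale). More RNA per cell of a gene and more cells that express it cannot be told apart in bulk RNA.

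Most respiratory chain transcripts stood slightly higher in the IgE library, and none of the 100 measured genes differed by 2-fold in either direction. Of all tested genes, 1.33% were 2-fold or more higher and 1.30% were lower by that much, but among the 9631 genes with 200 or more reads, where 95 of the 100 lie, these shares were 0.125% and 0.0104%. The count of 0 among the members lies near that background. The log2 fold was above 0 for 89 of the 100 genes, against 51.1% of all tested genes. A difference of 1.2-fold or more upward was seen in 38, against 13.1% of all tested genes. Downward, 2 genes passed this size, against 10.9%, and 60 lay between. With 200 or more reads, 37 of 95 were higher by 1.2-fold, against 8.24% of all genes at that depth, and 1 was lower, against 5.24%. The median of the 100 genes was 0.21, which is less than 1.2-fold, and that of all tested genes was 0.00. The counting interval lay wholly above 0 for 70 of the 100 and wholly below 0 for 1. Of all 12102 tested genes, 2415 had an interval wholly above 0 and 2250 had one wholly below 0. With plain library totals in place of the scaling used here, 66 of the 100 intervals lay above 0.

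**Figure D1:**
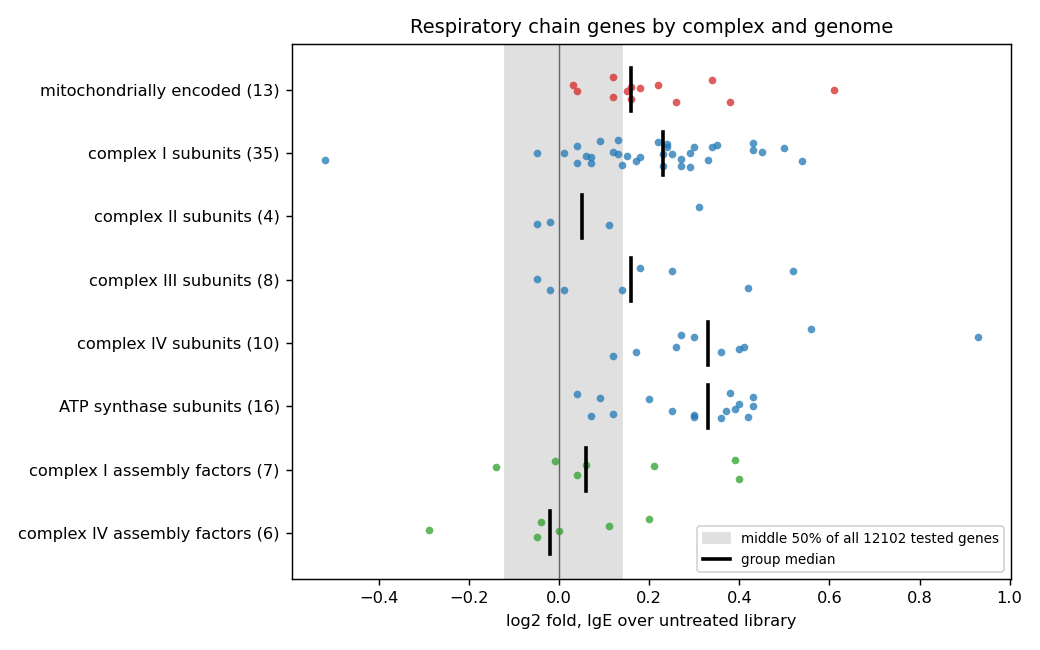
Each point is 1 measured gene, placed by its log2 fold (IgE over untreated library) in its complex or class, with the number of genes in brackets. Black bars are group medians and the grey band spans the middle 50% of all 12102 tested genes. The medians of complex IV (0.33) and ATP synthase (0.33) lie furthest right. Those of complex II (0.05), the complex I assembly factors (0.06) and the complex IV assembly factors (-0.02) lie inside the band.

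Cytosolic ribosomal protein transcripts were shifted the same way: 74 of 75 were above 0 and 39 at least 1.2-fold higher, with a median of 0.29. Of 73 mitochondrial ribosomal protein genes, 65 were above 0 and 18 at least 1.2-fold higher, with a median of 0.14. The shares over all tested genes were 51.1% above 0 and 13.1% at least 1.2-fold higher. Whether these shifts and that of the respiratory chain have a common source was not tested.

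All 13 mRNAs of the mitochondrial genome were above 0, with a median of 0.16, and 3 of them were at least 1.2-fold higher. The shares over all tested genes were 51.1% and 13.1%. The 13 genes encode 7 hydrophobic subunits of complex I and cytochrome b of complex III. They also encode the 3 catalytic subunits of complex IV and a pair of membrane subunits of ATP synthase. Together they took 713631 of the untreated reads (3.41%, exact binomial interval 3.40 to 3.42%) and 995774 of the IgE reads (3.79%, 3.78 to 3.80%). Their counts are large and their counting intervals narrow, while variation between cultures was not measured.

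Mt-nd3, a small complex I subunit, was the highest of them, with 2528 reads untreated and 4811 with IgE, or 120 and 184 CPM. Its log2 fold was 0.61 (0.54 to 0.68). Mt-atp6, the proton channel subunit a of ATP synthase, went from 1243 to 1619 CPM (0.38, 0.36 to 0.40). Mt-nd4l was at 102 and 129 CPM (0.34, 0.26 to 0.42). Below 1.2-fold lay Mt-nd5, at 2250 and 2315 CPM (0.04, 0.02 to 0.06), and Mt-atp8, at 448 and 569 reads (0.03, -0.16 to 0.21).

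Transcripts that share an RNA differed in these counts. Mt-atp8 and Mt-atp6 overlap on 1 mature mRNA, as do Mt-nd4l and Mt-nd4, yet Mt-atp8 stood at 0.03 and Mt-atp6 at 0.38, and Mt-nd4l stood at 0.34 and Mt-nd4 at 0.15 (0.13 to 0.17). Reads in such overlaps cannot be assigned to a single gene, and how they were counted is not given in the sources used here. Mt-nd6, the only one of these genes on the light strand, was at 123 and 134 CPM (0.12, 0.05 to 0.20). The libraries were made from poly(A)-selected RNA.

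The mRNAs for the catalytic subunits of complex IV were ordered Mt-co2, Mt-co3, Mt-co1 by their difference. Mt-co2, which takes electrons from cytochrome c, was at 2865 and 3433 CPM (0.26, 0.25 to 0.28). Mt-co3 was at 3296 and 3827 CPM (0.22, 0.20 to 0.23). Mt-co1, which holds the oxygen-binding centre, was at 14637 and 15925 CPM (0.12, 0.11 to 0.13). Mt-co1 alone made up 43.0% of the mitochondrially encoded reads untreated and 41.9% with IgE. The intervals of Mt-co2 and Mt-co3 do not meet that of Mt-co1.

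Mt-nd1, at 1469 and 1666 CPM (0.18, 0.16 to 0.20), Mt-nd2, at 2075 and 2321 CPM (0.16, 0.14 to 0.18), and Mt-cyb, at 3626 and 4038 CPM (0.16, 0.14 to 0.17), lay close to the median of the set. Within the mitochondrial reads, complex IV genes took 61.2% untreated and 61.0% with IgE, and complex III 10.7% and 10.6%. ATP synthase genes, almost wholly Mt-atp6, took 3.72% and 4.32%.

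**Figure D2:**
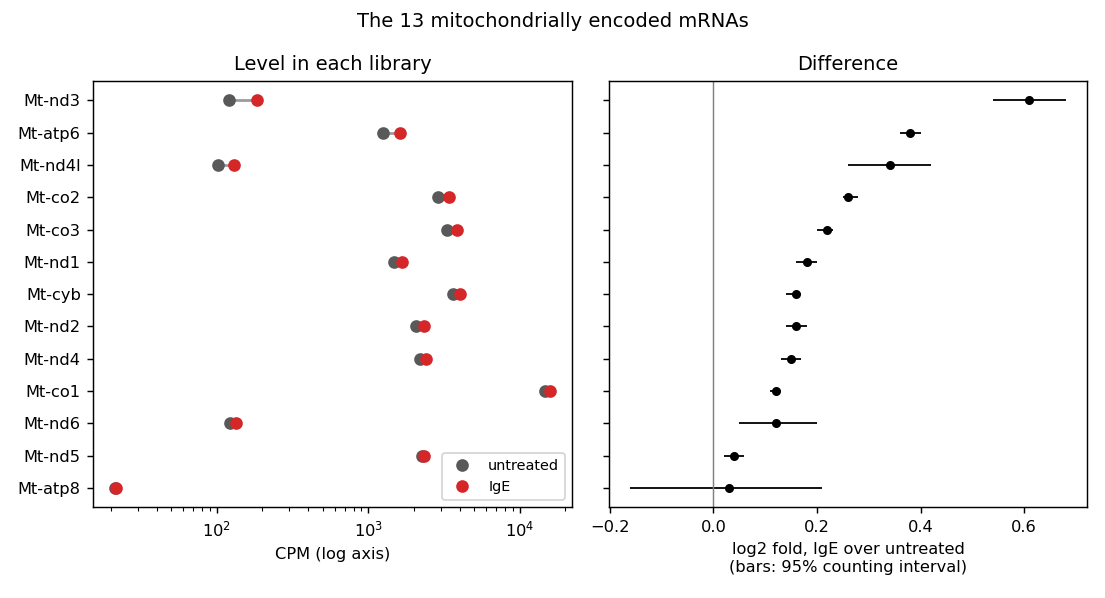
Left, the level of each of the 13 mitochondrially encoded mRNAs in the untreated (grey) and IgE (red) library, in CPM on a log axis; right, the log2 fold with its 95% counting interval. All 13 points lie above 0, from Mt-atp8 at 0.03 to Mt-nd3 at 0.61.

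Nuclear encoded subunits were higher as a group. Of 73 measured, 67 were above 0, 33 were higher by 1.2-fold or more and 1 was lower by that much, with a median of 0.25. The shares over all tested genes were 51.1%, 13.1% and 10.9%. The 73 subunits took 0.688% of untreated and 0.761% of IgE reads, a log2 ratio of summed reads of 0.15 (0.14 to 0.16). The difference was also present in genes with many reads: among the 28 subunits with a summed count of 3000 or more, 10 were at least 1.2-fold higher, against 3.64% of all genes in that range. The median of these 28 was 0.19. It was 0.24 for the 31 subunits with 1000 to 3000 reads, 0.37 for the 10 with 200 to 1000 and 0.08 for the 4 with fewer.

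**Figure D3:**
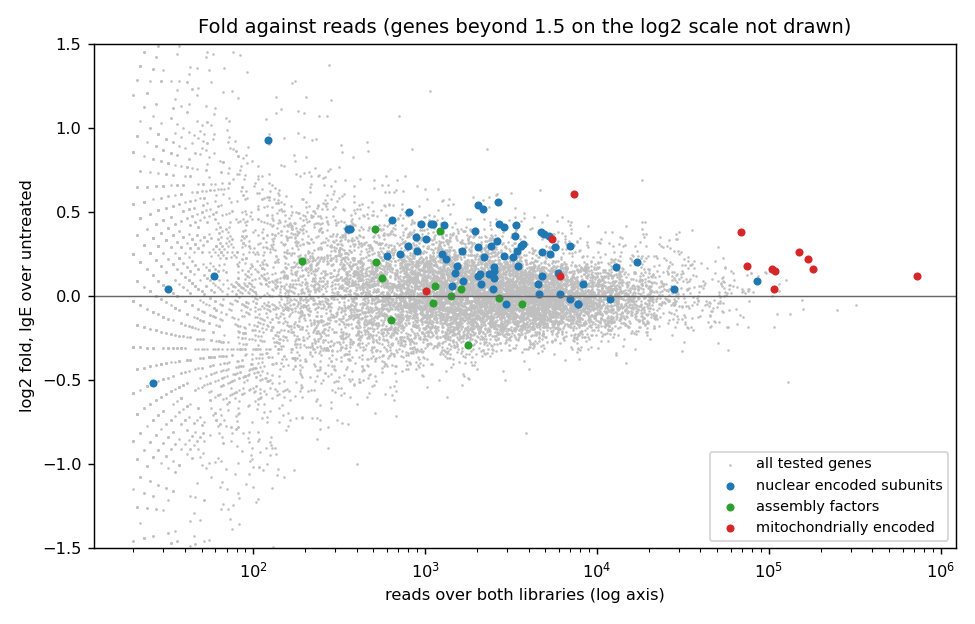
Log2 fold (IgE over untreated) against reads over both libraries on a log axis, for all tested genes (grey), nuclear encoded subunits (blue), assembly factors (green) and mitochondrially encoded genes (red). Most blue and red points lie above 0 over the whole range of reads, and the spread of all genes narrows as reads increase.

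Complex I oxidises NADH. Of its 35 measured nuclear Nduf genes, 33 were above 0, 13 were higher by 1.2-fold or more and 1 was lower by that much. The shares over all tested genes were 51.1%, 13.1% and 10.9%. The median of the 35 was 0.23. Ndufa5, a subunit of the matrix arm, had 723 and 1308 reads, or 34.5 and 50 CPM (0.54, 0.40 to 0.67). Ndufa2, also of the matrix arm, went from 13.9 to 19.7 CPM (0.50, 0.30 to 0.72). Next were Ndufa6 (0.45), Ndufa13 (0.43, also known as the cell death regulator Grim-19) and Ndufc1 (0.43). The iron-sulfur and flavin subunits that carry the electrons were closer to level. Ndufs1, the largest subunit, was at 167 and 162 CPM (-0.05, -0.11 to 0.02), and Ndufv1, which binds NADH, at 128 and 129 CPM (0.01, -0.07 to 0.08). Ndufs7 and Ndufs8, which hold iron-sulfur clusters near the quinone site, were at 0.09 and 0.06, and their intervals held 0. Ndufs3 was the highest of these carriers and their partners, at 13.8 and 16.4 CPM (0.25, 0.04 to 0.47).

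Some subunits that every complex I needs were counted at few reads. The lowest log2 fold over the minimum was that of Ndufs6, with 14 and 12 reads (-0.52, -1.78 to 0.68). Ndufa1 had 14 and 18 reads and Ndufa3 25 and 34. The pseudogene Ndufv3-ps1, which the name rule also caught, had 19 and 18 reads (-0.39, -1.41 to 0.61), and Ndufv3 itself 1085 and 1393 (0.04). Counts this low for subunits of a complex whose other members had far more reads are uncertain, and their cause was not tested. Many respiratory genes have pseudogenes and mitochondrial DNA has nuclear copies, and the treatment of reads that match several places is not known here.

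The minimum of 20 reads left out 5 members. Just inside it stood Ndufs6 (26 reads over both libraries) and just outside it Cox7a1 (16 reads). Ndufa4l2, an isoform induced by low oxygen, had 1 read in all, and Cox4i2 and Uqcr11 were listed at 0.

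Complex II, succinate dehydrogenase, links the chain to the citric acid cycle. Its 4 subunits showed no shared direction, with 2 above 0 (51.1% of all tested genes) and a median of 0.05. Sdhc, a membrane anchor, was at 69.2 and 85.6 CPM (0.31, 0.21 to 0.40). Its partner anchor Sdhd was at 63.8 and 61.7 CPM (-0.05, -0.15 to 0.06). The flavoprotein Sdha was at 254 and 251 CPM (-0.02, -0.07 to 0.03) and the iron-sulfur subunit Sdhb at 51.4 and 55.5 CPM (0.11). Of the 4, Sdhc was the only one whose counting interval excluded 0.

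Complex III passes electrons from coenzyme Q to cytochrome c. Of its 8 measured nuclear subunits 6 were above 0 and 2 were at least 1.2-fold higher (51.1% and 13.1% of all tested genes). Their median was 0.16. The log2 ratio of their summed reads was 0.08 (0.05 to 0.11). Uqcrh, the hinge protein beside cytochrome c1, had 782 and 1397 reads, or 37.3 and 53.4 CPM (0.52, 0.39 to 0.65). Uqcrb, which lies near the quinone site, went from 22.9 to 30.6 CPM (0.42, 0.25 to 0.58). The large core proteins were level: Uqcrc1 was at 149 and 146 CPM (-0.02, -0.09 to 0.05) and Uqcrc2 at 168 and 163 CPM (-0.05, -0.11 to 0.02). Cyc1, cytochrome c1, was at 97.8 and 98.5 CPM (0.01, -0.08 to 0.09). Cycs, the mobile carrier cytochrome c, which also triggers apoptosis when released from mitochondria, went from 159 to 186 CPM (0.23, 0.17 to 0.29).

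Complex IV reduces oxygen to water. All 10 measured nuclear Cox subunit genes were above 0 and 7 were at least 1.2-fold higher (51.1% and 13.1% of all tested genes). Their median was 0.33. Cox7b had the largest log2 fold among the 100 measured genes, with 36 and 86 reads, or 1.72 and 3.28 CPM (0.93, 0.36 to 1.54), on few reads. Cox7c, a small membrane subunit, had 931 and 1709 reads, or 44.4 and 65.3 CPM (0.56, 0.44 to 0.67). Cox6c followed at 51.8 and 68.7 CPM (0.41, 0.30 to 0.52). Lowest were Cox6a1, at 41.2 and 44.8 CPM (0.12, -0.01 to 0.25), and Cox4i1, at 255 and 287 CPM (0.17, 0.12 to 0.22). Cox4i1 and Cox6a1 are the ubiquitous isoforms of their subunits. The lung isoform Cox4i2 was listed at 0, and Cox7a1, the heart and muscle isoform, had 12 and 4 reads. Cox6b1, which clamps the dimer, was at 67.6 and 83.4 CPM (0.30, 0.21 to 0.40). Cox7a2l, which joins complexes III and IV into supercomplexes, was at 91.2 and 109 CPM (0.26, 0.18 to 0.34). Ndufa4, a complex IV subunit in spite of its name, was at 18.6 and 23.6 CPM (0.34, 0.16 to 0.53) and is counted above by its Nduf name.

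The log2 fold was also above 0 for all 16 measured nuclear Atp5 genes of ATP synthase. All 16 counting intervals lay above 0 as scaled here, but 14 with plain library totals, where those of Atp5f1a and Atp5f1d held 0. Of the 16, 10 were at least 1.2-fold higher, with a median of 0.33. Of the 12102 tested genes, 51.1% were above 0, 13.1% were higher by that size and 2415 had an interval wholly above 0. Atp5f1e, the epsilon subunit of the central stalk, was at 19.3 and 26.0 CPM (0.43, 0.25 to 0.61), and Atp5mk, a small membrane subunit, at 19.7 and 26.6 CPM (0.43, 0.25 to 0.61). The abundant catalytic head subunits stood lowest with Atp5f1d. Atp5f1b, the catalytic beta subunit, had 36452 and 48473 reads, or 1737 and 1851 CPM (0.09, 0.07 to 0.11). Atp5f1a, the alpha subunit, was at 591 and 606 CPM (0.04, 0.00 to 0.07), and Atp5f1d at 172 and 180 CPM (0.07, 0.00 to 0.13). Atp5mc1, Atp5mc2 and Atp5mc3 encode the same mature ring subunit c with different import sequences. Their levels were 89.3 and 115 CPM (0.37), 131 and 161 CPM (0.30), and 96.0 and 124 CPM (0.36), with intervals that overlap each other. Atp5if1, which inhibits the enzyme when it runs in reverse, was at 102 and 122 CPM (0.25, 0.17 to 0.33). Because Atp5f1b and Atp5f1a hold most reads of the complex, the log2 ratio of its summed reads was 0.14 (0.13 to 0.16), less than the median over genes.

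Split by a list written by hand, subunits listed with a counterpart in the bacterial enzymes (conserved) differed less than all others (called supernumerary here). The others include Ndufs4, Ndufs6, Ndufa12 and the inhibitor Atp5if1, and whether each of them lacks a bacterial counterpart was not checked. This split was chosen after the values were seen and describes them without a test. Whether the difference follows encoded protein length in place of this split was not tested, since lengths were not at hand. Of 20 conserved nuclear subunits 4 were at least 1.2-fold higher, with a median of 0.10. Of 53 supernumerary subunits 29 were at least 1.2-fold higher, with a median of 0.27. The share over all tested genes was 13.1% higher by that size. The 4 conserved genes were Sdhc and the subunit c genes Atp5mc1, Atp5mc2 and Atp5mc3. The pooled sides hold different complexes: all 10 Cox subunit genes (median 0.33) count as supernumerary and all 4 complex II genes (median 0.05) as conserved. In complex I, the medians were 0.08 for 6 conserved (0.02 from their summed reads) and 0.24 for 29 supernumerary subunits, of which 13 lay above the highest conserved subunit (0.25). For ATP synthase they were 0.16 for 8 conserved and 0.40 for 8 supernumerary subunits, of which 6 lay above the highest conserved one (0.37). In complex III, with 2 conserved subunits, the supernumerary core proteins Uqcrc1 and Uqcrc2 went against this pattern and stood below both. Supernumerary genes had fewer reads (median 2075) than conserved ones (5074). Among subunits with 1000 or more reads the medians were 0.26 for 40 supernumerary and 0.09 for 19 conserved genes.

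**Figure D4:**
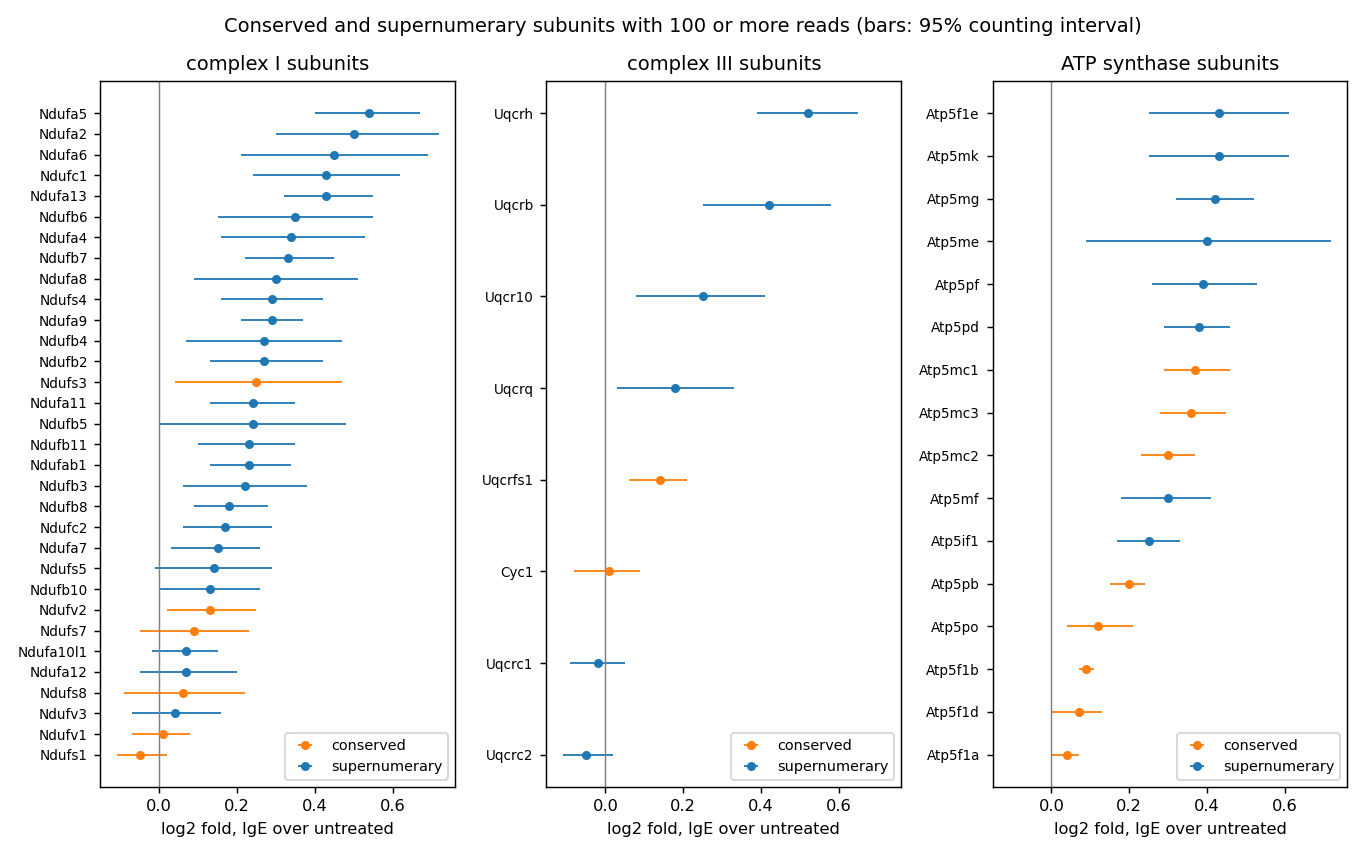
Log2 fold (IgE over untreated) with its 95% counting interval for each nuclear subunit of complex I, complex III and ATP synthase with 100 or more reads. Subunits listed as conserved (orange) are mostly low in each panel, except the subunit c genes Atp5mc1, Atp5mc2 and Atp5mc3 and, in complex I, Ndufs3 at 0.25. Uqcrc1 and Uqcrc2 are low and counted as supernumerary (blue).

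Assembly factors, which help to build the complexes but are not part of them, lay closer to level than the subunits. Of the 7 Ndufaf factors of complex I, 5 were above 0 and 2 were at least 1.2-fold higher, with a median of 0.06 against 0.23 for the subunits. Among all tested genes 51.1% were above 0, 13.1% were higher by that size and 10.9% lower. Ndufaf5, which modifies Ndufs7, was at 9.24 and 12.2 CPM (0.40, 0.14 to 0.66), and Ndufaf3 at 22 and 28.9 CPM (0.39, 0.22 to 0.56). Lowest were Ndufaf6, at 14.2 and 12.8 CPM (-0.14, -0.37 to 0.09), and Ndufaf4, at 57.3 and 56.8 CPM (-0.01, -0.13 to 0.10). The ranges of subunits and factors overlap, and the difference between their means was 0.07, against 0.16 between their medians.

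The 6 measured assembly factors of complex IV had a median of -0.02, with 3 above 0, none higher by 1.2-fold and 1 lower by more than that. The shares over all tested genes were 51.1%, 13.1% and 10.9%. Cox10, which makes heme O for the enzyme, had 877 and 898 reads, or 41.8 and 34.3 CPM (-0.29, -0.42 to -0.15). It was the only member over the minimum of reads whose counting interval lay wholly below 0. Cox15, which turns heme O into heme A, was at 79.0 and 76.2 CPM (-0.05, -0.15 to 0.04). Cox19 was at 10.2 and 11.7 CPM (0.20, -0.06 to 0.46) and Cox16 at 11.5 and 12.4 CPM (0.11). Assembly factors outside the name rule were also measured: of 36 such genes 27 were above 0, 9 were higher by 1.2-fold or more and 2 were lower by as much, with a median of 0.11. Many of them have few reads, and 15.9% of all genes with 200 to 1000 reads and 32.1% of those with 20 to 200 were higher by 1.2-fold or more. They ranged from Lyrm7, a complex III factor (76 and 74 reads, -0.36, -0.84 to 0.12), to Cmc2, a complex IV factor (4.81 and 8.21 CPM, 0.77, 0.42 to 1.13).

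Genes for mitochondrial transcription, maintenance of mitochondrial DNA and biogenesis had mixed directions, with 14 of 23 above 0, 5 higher by 1.2-fold or more, 1 lower by that much and a median of 0.04. The shares over all tested genes were 51.1% above 0, 13.1% higher and 10.9% lower by 1.2-fold or more. Tfam, which packages mitochondrial DNA and starts its transcription, was at 37.5 and 40.5 CPM (0.11, -0.02 to 0.25). The mitochondrial RNA polymerase Polrmt was at 57.2 and 50.8 CPM (-0.17, -0.29 to -0.06). Nrf1, a transcription factor of many respiratory genes, had 2110 and 2394 reads (-0.14, -0.22 to -0.05). Highest was Mterf4, which acts in mitochondrial ribosome assembly, with 191 and 332 reads (0.48, 0.22 to 0.74). Lowest was the nuclear receptor Esrra, with 30 and 16 reads (-1.20, -2.20 to -0.31). Slirp, which stabilises mitochondrial mRNAs, was at 14.8 and 19.2 CPM (0.38, 0.17 to 0.59), and its partner Lrpprc at 391 and 397 CPM (0.03, -0.02 to 0.07). Tfam, Polrmt, Nrf1, Slirp and Lrpprc were chosen after their values were seen.

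Coenzyme Q synthesis showed no shared direction, with 6 of 13 genes above 0 (51.1% of all tested genes) and a median of -0.05. It ranged from Coq4 (122 and 107 reads, -0.51, -0.90 to -0.12) to the kinase-like Coq8a (49 and 132 reads, 1.10, 0.63 to 1.61). Coq8a was the only gene of these lists at least 2-fold higher, against 1.33% of all tested genes. Of 20 carriers, porins and inner membrane genes 18 were above 0 and 6 at least 1.2-fold higher (51.1% and 13.1% of all tested genes), with a median of 0.12. Their range ran from Letm1, a cation exchanger (180 and 171 CPM, -0.07), to Etfb, an electron transfer flavoprotein subunit (9 and 19 reads, 0.73, -0.46 to 2.09).

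Promoter sequences were at hand for 79 of the nuclear members, from RefSeq on the GRCr8 build, in windows of 250 bases before to 50 after the start. The counts rest on the rn6 build, so genes were matched by symbol only. Each window was searched on both strands for 3 motifs that are known from respiratory gene promoters: CGCANGCG, bound by NRF-1; CCGGAAG, bound by ETS factors such as GABPA (NRF-2); and AAGATGGC, bound by YY1. NRF-1 letters were found in 28 of 79 members (35.4%), against 18.3% of the promoters of 8560 tested genes. ETS letters were found in 23 (29.1%, against 19.8%) and YY1 letters in 15 (19.0%, against 6.31%). At least 1 of the 3 was in 52 members (65.8%, against 37.3%). Each promoter was counted once per motif, and ETS and YY1 letters can overlap at a shared AAG. The NRF-1 letters are a shortened form, taken by 1 base less at each end after a longer form had been searched and its result seen.

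The motifs did not all lean the same way, and none of these differences was tested. A motif of any of the 3 kinds was in 19 of 31 members that were at least 1.2-fold higher (61.3%) and in 33 of 48 others (68.8%). Nuclear subunits with a motif had a median of 0.23 (43 genes) and those without 0.25 (23 genes). Among the members, YY1 letters leaned toward the higher genes. They were in 8 of the 31 higher members (25.8%) and in 7 of the 48 others (14.6%). The 14 subunits with them had a median of 0.29, against 0.24 for the 52 without. Over all tested genes with a promoter, the medians were -0.01 for the 540 with YY1 letters and 0.00 for the 8020 without. In most members with YY1 letters these begin after the start, as in Ndufa2 (26 bases after), Cox10 (12) and Ndufs7 (4). They begin before it in Atp5pf (111 bases), Uqcrc1 (1) and Atp5me (183), whose promoter is printed below. NRF-1 letters were in 32.3% of the higher members and 37.5% of the others, and ETS letters in 32.3% and 27.1%. The following 5 promoters (the 250 bases up to the start, 5′ to 3′, motifs in capitals), chosen after the values were seen, are examples at high and low folds. Ndufa5 (0.54) and Sdha (-0.02) both carry NRF-1 letters, Uqcrh (0.52) and Uqcrc2 (-0.05) both carry ETS letters, and Atp5me (0.40) carries all 3 motifs.
Ndufa5 (chr4:53971236-53971485, - strand): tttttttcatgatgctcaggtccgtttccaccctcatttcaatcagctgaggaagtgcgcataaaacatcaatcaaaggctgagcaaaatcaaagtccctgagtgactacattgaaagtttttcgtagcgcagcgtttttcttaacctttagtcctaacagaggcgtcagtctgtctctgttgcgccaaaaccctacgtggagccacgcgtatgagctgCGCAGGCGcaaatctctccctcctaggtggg
Sdha (chr1:30764303-30764552, + strand): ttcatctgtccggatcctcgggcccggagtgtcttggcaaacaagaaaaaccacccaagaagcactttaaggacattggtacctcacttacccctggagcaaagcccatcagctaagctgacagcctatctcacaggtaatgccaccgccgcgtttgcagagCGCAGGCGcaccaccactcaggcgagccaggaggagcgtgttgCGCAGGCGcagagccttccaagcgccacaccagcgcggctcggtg
Uqcrh (chr5:134790883-134791132, - strand): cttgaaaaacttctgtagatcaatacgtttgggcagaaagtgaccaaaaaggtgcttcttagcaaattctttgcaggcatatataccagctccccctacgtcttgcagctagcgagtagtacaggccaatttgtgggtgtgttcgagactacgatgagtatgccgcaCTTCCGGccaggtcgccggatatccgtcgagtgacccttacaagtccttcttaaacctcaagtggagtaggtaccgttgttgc
Uqcrc2 (chr1:184598990-184599239, + strand): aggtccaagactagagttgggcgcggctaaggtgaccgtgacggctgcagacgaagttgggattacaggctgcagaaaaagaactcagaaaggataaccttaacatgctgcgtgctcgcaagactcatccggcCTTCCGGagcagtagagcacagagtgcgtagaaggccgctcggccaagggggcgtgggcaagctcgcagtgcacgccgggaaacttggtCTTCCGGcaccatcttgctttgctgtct
Atp5me (chr14:1464610-1464859, + strand): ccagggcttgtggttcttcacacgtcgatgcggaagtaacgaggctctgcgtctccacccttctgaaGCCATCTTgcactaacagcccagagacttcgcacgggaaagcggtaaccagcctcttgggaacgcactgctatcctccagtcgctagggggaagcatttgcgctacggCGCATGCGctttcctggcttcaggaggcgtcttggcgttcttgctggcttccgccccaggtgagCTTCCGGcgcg
In Ndufa5 the match begins 31 bases before the start. Sdha has matches that begin 88 and 45 bases before it and a further one that begins at the start itself and is not printed. In Uqcrh the ETS letters begin 83 bases before the start, and in Uqcrc2 117 and 28 bases before it. A match of letters is a description of the window and not a measured binding site.

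In the authors' deposited table, 7 of the 100 measured genes had an unadjusted p under 0.05, all with a higher value in the IgE library, against 4.44% of all tested genes. These were Mt-nd3 (0.00395), Cox7b (0.00988), Cox7c (0.0103), Ndufa5 (0.0147), Uqcrh (0.0179), Ndufa2 (0.0326) and Ndufa13 (0.0472), each given as the p in the authors' deposited table. None of the members had an adjusted p under 0.05 there, the lowest over the minimum of reads being 0.35 for Mt-nd3 in the authors' deposited table. Cox7a1 was the only one of the 106 names in the shorter authors' deposited table, a selection of 451 genes, with a log2 fold of -1.88 on 12 and 4 reads. These p-values compare 2 libraries and rest on no replicate.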

How the data were processed

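Poly(A)-selected RNA of 1 untreated and 1 IgE-treated RBL-2H3 library was sequenced. Per the file headers, the authors deposited raw counts of reads for each gene name, together with a log2 fold change, a p-value and an FDR. Tools named in the submitters' processing notes, without roles, are HISAT2 2.1.0, fastp 0.23.0 and DESeq2 1.18.1, with the build rn6; the counter and its strand setting are not given in the sources at hand. Identical rows were kept once (16990 rows, 14913 names).

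CPM and log2 folds were computed with edgeR 4.0.16 (R 4.3.3), TMM scaling and a prior of 0.5 counts, on all genes; genes with 20 or more reads were described. Intervals are exact Clopper-Pearson 95% intervals of the read ratio and cover counting error alone. They take reads as independent and are too narrow where reads are copies of 1 molecule. With 1 library per group there was no test, and the calculation was tested on simulated data. Alternatives were library totals, DESeq2 1.42.0 size factors, totals without mitochondrially encoded genes, a prior of 5, minima of 1 and 100 reads, means and summed reads. Members, lists and rules were chosen with earlier results of these data known. Named genes were all mitochondrially encoded members, the 2 highest and 2 lowest of each group, Cycs, Cyc1, complex II, isoform pairs, the subunit c genes, and the extremes of each list; any other gene was picked after seeing its values. Some genes of these families and lists were not analysed here, and nor was encoded protein length. The values of 1 member are not reported here.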

Additional observations from a re-analysis of the deposited data

How the results depend on the processing

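Of 96 alternative group medians, 95 stayed within the group's counting interval, taken as the median of the lower and of the upper bounds of its genes. The exception was ATP synthase, at 0.145 from summed reads, where Atp5f1b and Atp5f1a dominate by construction. Summed reads also lowered complex III to 0.081, inside its wide interval, though the interval of those summed reads (0.05 to 0.11) does not hold its median of 0.16. Such a group interval is as wide as that of a single gene, and a change of scaling moves all genes alike. Staying inside it was therefore nearly fixed in advance for the scalings. No median of a group at least 1.2-fold apart changed sign. The median of all genes moved by less than 0.01 on the log2 scale between scalings. Members at least 1.2-fold lower numbered 3 with the pseudogene, or 1 with a minimum of 100 reads and 6 with a minimum of 1 read, and members at least 2-fold lower 0, or 3 with a minimum of 1 read. Over all genes, a prior of 5 counts gave 104 at least 2-fold higher and 99 lower in place of 161 and 157. Raising the minimum to 100 reads left 21 higher and 15 lower, and at 1.2-fold 979 higher and 692 lower in place of 1587 and 1324. These minima and the prior act on weakly expressed genes by construction. For single named genes, 281 of 282 alternative folds lay inside that gene's interval, and Mt-co1 was at 0.112 with library totals. The first split of subunits tried, which counted Uqcrc1, Uqcrc2 and Atp5f1e as conserved but Atp5po, Atp5pb and the subunit c genes as supernumerary, gave medians of 0.065 and 0.286. With DESeq2 size factors or totals without mitochondrially encoded genes, 69 member intervals lay above 0. These interval counts, the 200-read minimum, that split, the 1000-read minimum and the place of Ndufa4 were added after seeing the data. No paired analysis was possible because there is 1 library per condition, and leaving 1 out would leave no comparison. Counting error limits members with under 100 reads, and variation between cultures is unknown for all.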
